A study of Mus musculus with 3 samples.

Results

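Transcripts of 9 enzymes that are characteristic of liver were followed in mouse heart: tyrosine aminotransferase (Tat), 4-hydroxyphenylpyruvate dioxygenase (Hpd), tryptophan dioxygenase (Tdo2), carbamoyl phosphate synthetase (Cps1), ornithine transcarbamylase (Otc), arginase (Arg1), betaine-homocysteine methyltransferase (Bhmt), urate oxidase (Uox) and the cytosolic phosphoenolpyruvate carboxykinase (Pck1). They were chosen by gene symbol, with their levels on these same arrays already known, so every value below is a description. All 9 were found, among 25206 probe sets of which 23740 carry a gene symbol, with 1 probe set per gene. The tissue was left ventricle, and the mice were C57BL/6N males 8 to 12 weeks old. In the Control group mice had an osmotic pump with vehicle and saline injections. The Iso group had the vehicle pump and isoproterenol, a beta-adrenergic agonist that injures the heart at high dose, given into the peritoneum at 50 mg/kg per day for 11 days. Mice of the Iso+Insl6 group received the same isoproterenol while the pump infused INSL6 protein, a relative of insulin and relaxin, subcutaneously at a daily 50 to 70 nmol/kg. Hearts were harvested at 14 days, and RNA from 3 samples was pooled for the 1 array of each group. There are no replicate arrays, so no difference has an error and no test of a condition exists.

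In mammals these enzymes do much of the chemistry that hepatocytes perform on nitrogen. Tat and Hpd act in sequence on tyrosine, Tdo2 opens the ring of tryptophan, and Cps1, Otc and Arg1 are steps of the urea cycle, which turns ammonia into urea. Uox breaks down urate in mice, Bhmt uses betaine to remake methionine, and Pck1 commits carbon to new glucose. Tat, Tdo2 and Pck1 are classic targets of glucocorticoid and fasting signals in liver. Ventricular muscle is not known as a main site of any of the 9 pathways, while Pck1 also works in kidney and fat and Arg1 in macrophages.

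Levels are log2 values as deposited, and the median of all values, 4.16, served as background. The 3 arrays had nearly the same distribution, with sorted values at most 0.14 apart at any rank. On any pair of arrays 60.9% to 61.7% of probe sets had identical values to 2 decimals. The source of these ties was not tested, so equal values here and below do not show that a transcript was unchanged. Among genes at or above background on the higher array, 95% differed by no more than 0.37 between Iso and Control and by no more than 0.34 between Iso+Insl6 and Iso. Ties count in these limits, and the median absolute difference was 0.0 in both comparisons, so the limits are no measure of error. The labelled tissue showed in the muscle genes: all 10 ventricular cardiomyocyte markers were above background on every array, and their Iso+Insl6 minus Iso differences ran from -0.14 to 0.03.

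Between Control and Iso the 9 enzymes differed little. From Iso to Iso+Insl6, the listed values of 8 of the 9 were higher by 1.5-fold or more, while Bhmt stayed near background on every array. Where the lower level lay below background, a bound against background is also given, and by that measure 7 of the 8, all but Otc, passed 1.5-fold. Counts past a fold use listed values unless a bound is named. The median listed difference of the 9 genes was 2.17 on the log2 scale for Iso+Insl6 minus Iso, and 1.96 with levels below background set to it, where all genes above background had a median of 0.00. Whether more cells with these transcripts or more transcript per cell stood behind a higher level cannot be told apart in pooled tissue RNA.

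Tat and Hpd, the tyrosine enzymes, were measured above background on every array. Tat, which removes the amino group of tyrosine, stood at a level of 5.28 on Control, 5.04 on Iso and 8.09 on Iso+Insl6. Control and Iso lay close together and the Iso+Insl6 array far above both, 8.28-fold above Iso and 7.01-fold above Control. The log2 difference of 3.05 from Iso placed Tat at rank 4 from the highest among 12457 genes. Hpd, which catalyses the next step, had levels of 5.14, 5.31 and 7.66 in the same order of arrays. It was 5.10-fold above Iso on the Iso+Insl6 array, at rank 22. These folds thus rest on levels measured on both sides.

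Tdo2, the first enzyme of the kynurenine pathway in liver, had levels of 3.62 on Control, 3.82 on Iso and 6.12 on Iso+Insl6. It lay below background on the first pair of arrays and above it only on Iso+Insl6. Against background it was at least 3.89-fold higher than on Iso, with a listed log2 difference of 2.30.

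The urea cycle genes were not alike in size. Cps1, the mitochondrial entry step, stood at 5.09 on Control, 5.0 on Iso and 7.17 on Iso+Insl6. The Iso+Insl6 level was 4.50-fold above Iso, at rank 40, and Control and Iso were 0.09 apart. Otc, which joins carbamoyl phosphate to ornithine, was listed at 3.11, 3.30 and 4.63. Its listed log2 difference was 1.33, but both lower levels lay below background, and against background Otc was at least 1.39-fold higher, which is under the 1.5-fold threshold. Arg1, the cytosolic enzyme that releases urea, had the same level of 4.97 on Control and Iso and a level of 5.69 on Iso+Insl6. This 1.65-fold difference, 0.72 on the log2 scale, stood at rank 153.

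Uox, which oxidises urate in the peroxisome, was listed at 3.51 on Control, 3.57 on Iso and 6.34 on Iso+Insl6. As with Tdo2 and Otc, only the Iso+Insl6 level lay above background, and Uox was at least 4.53-fold higher there. The listed log2 difference from Iso was 2.77.

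Pck1 stood at 4.45 on Control, 4.32 on Iso and 6.25 on Iso+Insl6, above background on all 3 arrays. It was 3.81-fold higher than on Iso and 3.48-fold higher than on Control, and Control and Iso were 0.13 apart. Bhmt was the exception among the 9 genes. Its levels were 4.23, 4.05 and 4.08, with an Iso+Insl6 minus Iso difference of 0.03, and it was above background only on Control.

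**Figure D1:**
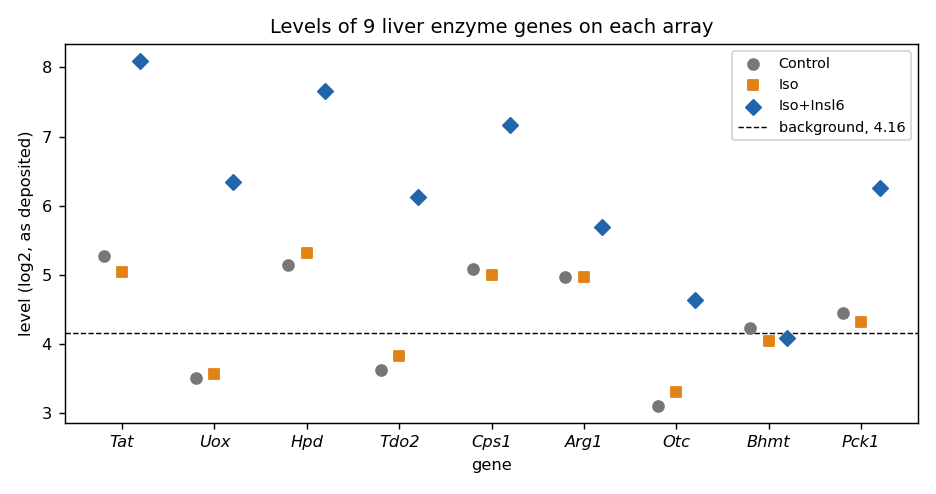
Level (log2, as deposited) of each of the 9 genes on the Control (circle), Iso (square) and Iso+Insl6 (diamond) arrays, 1 point per array; the dashed line is the background of 4.16. For 8 genes the Iso+Insl6 point is the highest and the other points lie close together, while the 3 points of Bhmt lie between 4.05 and 4.23.

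The first comparison of the design, Iso against Control, asks how isoproterenol alters the ventricle. No member reached 1.5-fold in either direction, and the 9 differences ran from -0.24 for Tat to 0.20 for Tdo2 with a median of 0.00. Only 6 of the 9 were at or above background on the higher of these arrays, since Uox, Tdo2 and Otc lay below it on both. Among all 12415 genes tested, 105 (0.846%) passed 1.5-fold upward on Iso and 128 (1.03%) downward.

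Iso+Insl6 against Iso, the second comparison, asks what INSL6 infusion adds. Of 12457 genes tested, 185 (1.49%) passed 1.5-fold upward, 122 (0.979%) passed 2-fold upward and 63 (0.506%) passed 1.5-fold downward. Among the 9 members the counts were 8, 7 and 0. These shares are given beside the members' counts as background only, because the members were chosen with this difference known. Uox, Tdo2 and Otc entered the tested set only through their Iso+Insl6 levels, and Bhmt did not enter it. The listed differences ran in the order Tat, Uox, Hpd, Tdo2, Cps1, Pck1, Otc, Arg1 and Bhmt, in which the places of Uox, Tdo2 and Otc rest on Iso levels below background. With 1 array a group no spread is known by which neighbours in this order could be separated.

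Iso+Insl6 minus Control uses the same Iso+Insl6 array, so it adds no separate evidence. There, 244 of 12420 genes (1.96%) passed 1.5-fold upward and 98 (0.789%) downward, and 8 and 0 of the members did. Uox had a difference of 2.83, Tat of 2.81, Hpd of 2.52, Tdo2 of 2.50 and Cps1 of 2.08. Pck1 (1.80), Otc (1.52) and Arg1 (0.72) followed, and Bhmt was at -0.15.

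**Figure D2:**
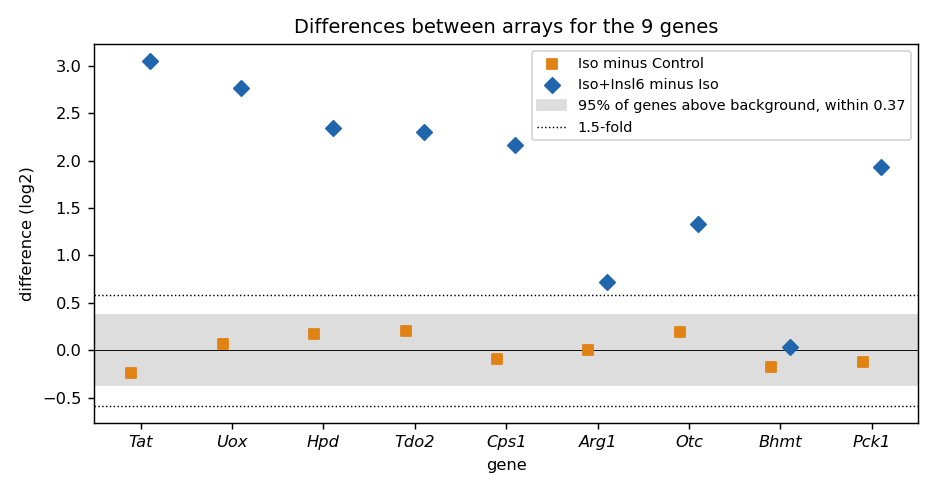
Log2 difference of each of the 9 genes for Iso minus Control (squares) and Iso+Insl6 minus Iso (diamonds). The grey band, within 0.37 of 0, holds at least 95% of genes above background in each comparison, tied values included, and the dotted lines mark 1.5-fold. Every square lies in the band, and every diamond but that of Bhmt lies above the upper line.

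The promoter sequences of 4 members are shown because Tat, Tdo2 and Pck1, named above as targets of glucocorticoid and fasting signals, were high together on the Iso+Insl6 array. Bhmt was not, though its levels of 4.05 on Iso and 4.08 on Iso+Insl6 lay below background. Each is the 250 bases before the RefSeq transcription start in GRCm38.p6, written 5′ to 3′ on the gene's strand. RefSeq promoters were matched for 7 of the 9 genes, all but Cps1 and Arg1. Capitals mark matches, on either strand, to short motifs named below.
Tat chr8:109990186-109990435 (plus strand): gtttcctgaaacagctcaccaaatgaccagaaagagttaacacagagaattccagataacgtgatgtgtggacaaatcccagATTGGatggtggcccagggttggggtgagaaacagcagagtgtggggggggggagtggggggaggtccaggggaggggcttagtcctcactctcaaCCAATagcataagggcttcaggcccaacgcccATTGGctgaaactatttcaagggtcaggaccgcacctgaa
Tdo2 chr3:81975729-81975978 (minus strand): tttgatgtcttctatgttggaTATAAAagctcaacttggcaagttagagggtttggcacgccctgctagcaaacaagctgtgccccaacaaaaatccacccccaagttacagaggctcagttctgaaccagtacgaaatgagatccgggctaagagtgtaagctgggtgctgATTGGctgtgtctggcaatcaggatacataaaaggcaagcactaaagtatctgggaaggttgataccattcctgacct
Pck1 chr2:173152823-173153072 (plus strand): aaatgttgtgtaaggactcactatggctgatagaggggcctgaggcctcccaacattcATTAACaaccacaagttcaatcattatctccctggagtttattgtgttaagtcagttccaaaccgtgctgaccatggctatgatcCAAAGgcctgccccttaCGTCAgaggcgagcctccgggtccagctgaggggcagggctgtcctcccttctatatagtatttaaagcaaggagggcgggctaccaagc
Bhmt chr13:93637759-93638008 (minus strand): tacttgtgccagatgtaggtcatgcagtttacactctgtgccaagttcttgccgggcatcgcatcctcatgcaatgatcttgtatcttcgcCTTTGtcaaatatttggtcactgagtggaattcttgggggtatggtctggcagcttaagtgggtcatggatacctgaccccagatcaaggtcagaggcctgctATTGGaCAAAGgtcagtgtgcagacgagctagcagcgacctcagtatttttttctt

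The motifs searched were the TATA box as TATAAA and the CCAAT box. For liver factors, GTTAAT stood for part of an HNF1 site, CAAAG for part of an HNF4 site and TTGCNNAA for a site of the C/EBP family. For hormone signals, AGAACA stood for part of a glucocorticoid receptor site and TGACG for part of a cAMP response element. CCAAT was found in Tat, Tdo2 and Bhmt and in 33.8% of all 32851 promoters cut to the same 250 bases. Tat held 3 copies, the nearest from 40 to 36 bases before the start. Pck1 alone of the 7 held TGACG, read as CGTCA on the strand shown and 90 to 86 bases before the start, against 17.8% of all promoters. Pck1 was also the only one with GTTAAT (6.43% of all), read as ATTAAC. The HNF4 letters CAAAG lay in Pck1, Uox and Bhmt, with 48.6% of all promoters holding it. TATAAA was in Tdo2 (12.4% of all) and TTGCNNAA in Uox (9.56% of all). The Tdo2 match lay 229 to 224 bases before the start, so the letters alone do not make it a working TATA box. AGAACA was in none of the 7 and in 16.1% of all, which says only that these letters are not in this window. No match overlapped another. Bhmt, which lay below background on Iso and Iso+Insl6, held CCAAT as Tat and Tdo2 did, and CAAAG as Pck1 did.

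Around the members, the other enzymes of each pathway were read from lists of known steps. In phenylalanine and tyrosine degradation 5 of 8 genes passed 1.5-fold upward from Iso to Iso+Insl6 and none downward, with a median difference of 1.18. Without Tat and Hpd, which were chosen with this difference known, 3 of 6 did, with a median of 0.66. Beside Tat and Hpd these included the pterin dehydratase Pcbd1, at 4.18, 4.0 and 4.86 on Control, Iso and Iso+Insl6, and homogentisate dioxygenase, Hgd, which follows Hpd, at 3.62, 3.28 and 4.79. As both lay below background on Iso, they were at least 1.62-fold and 1.55-fold higher. The last enzymes of the route, Gstz1 and Fah, differed by 0.22 and 0.46 and Qdpr by 0.00. Differences of 1.5-fold or more were found at Tat, Hpd and Hgd and not at the last steps.

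In the urea cycle and ammonia list 3 of 11 genes passed 1.5-fold by their listed values, namely the members Cps1, Otc and Arg1, and 2, Cps1 and Arg1, did by bound. The enzymes between Otc and Arg1 did not: argininosuccinate synthetase, Ass1, was below background on every array with listed levels of 3.26, 3.57 and 3.11, and argininosuccinate lyase, Asl, differed by 0.10. Among the other 8 genes of the list, differences ran from -0.46 for Ass1 to 0.39 for glutamine synthetase, Glul. The ornithine carrier Slc25a15 differed by 0.13, the aspartate carrier Slc25a13 by 0.00, and the activating enzyme Nags by 0.00 below background.

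Beyond Tdo2, tryptophan degradation held 1 further gene of 10 that was tested and past 1.5-fold. This was the kynurenine hydroxylase Kmo, with a listed difference of 0.64 and a bound of at least 1.27-fold. Aadat had a listed difference of 0.93 but lay below background on both arrays. The interferon-induced enzyme Ido1, which opens the same ring outside liver, was at 4.08 on all 3 arrays.

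In methionine, betaine and choline metabolism 3 of 13 genes were at least 1.5-fold higher, and Bhmt was not among them. Mat1a, the liver form of methionine adenosyltransferase, stood at 4.57, 4.71 and 6.62, which is 3.76-fold higher on Iso+Insl6 than on Iso. Glycine N-methyltransferase, Gnmt, was 2.39-fold and cystathionine gamma-lyase, Cth, 1.74-fold higher. The form of the first enzyme used outside liver, Mat2a, differed by 0.14 at a level of 9.03 on Iso+Insl6.

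Of 9 purine and urate genes only Uox was 1.5-fold higher on Iso+Insl6 than on Iso. Xanthine dehydrogenase, Xdh, which makes urate, was at 7.16 on Control, 7.66 on Iso and 8.17 on Iso+Insl6. It differed by 0.50 and 0.51 in the successive comparisons, each under 1.5-fold, and by 1.01 between Iso+Insl6 and Control. The urate exporter Abcg2 had levels of 6.28, 6.79 and 7.00. Both Xdh and Abcg2 were already higher on Iso than on Control, where Uox differed by 0.06. Urah, the enzyme that follows Uox, differed by 0.30 between Iso+Insl6 and Iso. Allc was listed at 2.88 on every array, below background.

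Of 8 gluconeogenesis genes, Pck1 and the liver fructose bisphosphatase Fbp1 were at least 1.5-fold higher. Fbp1 stood at 4.60, 4.18 and 5.86 and was 3.20-fold above Iso. The muscle form Fbp2 differed by -0.09, the mitochondrial carboxykinase Pck2 was at 5.61 on all 3 arrays, and glucose-6-phosphatase, G6pc, differed by 0.06 below background.

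Pathways that hold none of the 9 enzymes were read too, and over all tested genes 1.49% passed 1.5-fold upward. In serine, glycine, threonine and histidine degradation 1 of 6 tested genes passed it, histidine ammonia-lyase, Hal, with a listed difference of 0.96. In proline, ornithine and lysine degradation 1 of 5 tested genes did, Aass at 1.25. Against background the bounds of Hal and Aass were 1.38-fold and 1.05-fold, so neither passed by that measure. Of 9 aminotransferases other than Tat none reached 1.5-fold, with Got1 at -0.09 and Got2 at 11.99 on every array, and the furthest were Agxt2 (0.32, below background) and Kyat1 (0.30). All 12 branched-chain amino acid genes, which heart muscle uses, were above background on every array and differed by -0.11 to 0.21, with Bckdha highest and Dld lowest.

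**Figure D3:**
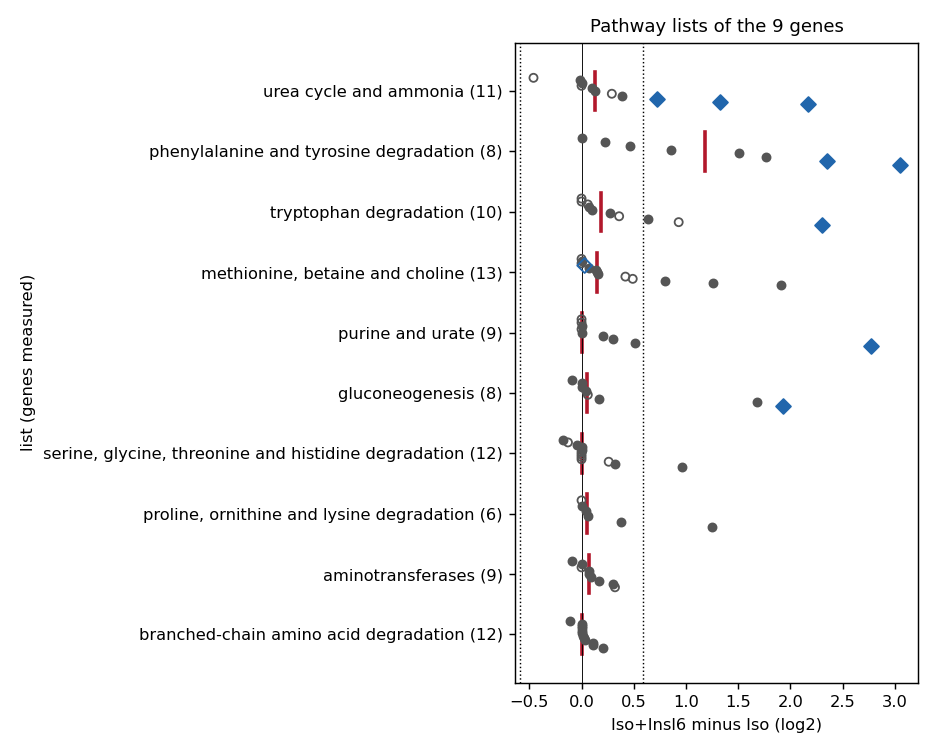
Log2 difference Iso+Insl6 minus Iso for each gene of 10 pathway lists, with the number measured in brackets; diamonds are the 9 members, circles other genes, open symbols genes below background on both arrays, red bars list medians and dotted lines 1.5-fold. The tyrosine list has a median of 1.18 with Tat and Hpd and 0.66 without them, and the branched-chain list lies within -0.11 to 0.21.

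Related forms of these enzymes, most of them used outside liver, did not differ by 1.5-fold. Arg2, the mitochondrial arginase, was at 3.57 on every array, below background, and Bhmt2, a relative of Bhmt that liver also makes, was at 3.54, 3.54 and 3.96, also below it. Over the 7 such genes the differences from Iso ran from -0.09 to 0.42.

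The genes whose pattern over the 3 arrays was most like the 9 enzymes were found by the Euclidean distance between each gene's levels, centred on their own mean, and the median centred levels of the members. Among 11581 named genes above background on their highest array, the 10 nearest were the apolipoprotein gene Apoc3 (distance 0.0408), the carboxylesterase Ces3b (0.0419), the protease inhibitor Serpina1b (0.0587), Apoa1 (0.085), histidine-rich glycoprotein Hrg (0.085), the bile acid transporter Slc10a1 (0.105), the cytochrome Cyp2a12 (0.142), Ahsg (0.153), the sulfotransferase Sult2a8 (0.157) and transthyretin, Ttr (0.159). The listed values entered this distance, and 4 of the 10 lay below background on Control and Iso. Against background Slc10a1 was at least 3.27-fold, Hrg 3.07-fold, Sult2a8 1.83-fold and Ces3b 1.36-fold higher on Iso+Insl6 than on Iso, so their place near the members is less sure. Of those above background on all 3 arrays, Ttr differed by 1.91, Apoc3 by 2.09, Serpina1b by 2.16, Apoa1 by 2.19 and Ahsg by 2.31. Of the members themselves Cps1 lay nearest to the median pattern, at 0.0533, and Bhmt furthest, at 1.77.

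Markers of hepatocytes moved with the enzymes. Of 20 listed, 19 were measured and all 19 were at least 1.5-fold higher on Iso+Insl6 than on Iso, beside 1.49% of all tested genes. This list was chosen with earlier results of these data known. Its differences ran from 1.40 for Fga to 3.19 for Cyp2e1 with a median of 2.13, beside the members' median of 2.17. Gc (2.85), Fgg (2.36) and Apoa2 (2.35) came next after Cyp2e1. The summed level of the 19 on the linear scale was 1486 on Control, 1363 on Iso and 6016 on Iso+Insl6, with Alb the largest part on each array. Of these markers 18, 17 and 19 were above background. None was silent on Iso+Insl6, and only Serpinc1 and Ambp lay below background on Iso. Between Iso and Control 5 of these markers were at least 1.5-fold lower, where no member was: Fgg (-0.90), Hpx (-0.82), Gc (-0.72), Fgb (-0.71) and Fga (-0.66). The part of hepatocyte RNA in the members' levels was not tested.

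In the lists of hepatocyte transcription factors and of Kupffer cell and liver sinusoid genes no gene reached 1.5-fold. Of 10 hepatocyte transcription factors 5 were above background on every array, with Hnf4a at 0.47 and Prox1 at -0.12. Hnf4a, at 4.7, 4.66 and 5.13, differed by more than the 0.34 that held 95% of genes above background. Foxa2 and Nr0b2 had tied values on every array, which do not show that they were unchanged. Nr1h4 and Onecut1, with listed differences of 0.47 and -0.29, lay below background on every array. The summed linear level of the 10 factors was 438, 407 and 399 on the 3 arrays in order. Prox1, at 7.98, 7.8 and 7.68, was the largest part of that sum, so the sum does not describe the other factors. Of 8 Kupffer cell and liver sinusoid genes 2 were above background, and differences ran from 0.00 to 0.05 with sums of 218, 224 and 226. Those above background were Timd4, at 4.33 on every array, and Lyve1, at 7.07, 7.13 and 7.15. Lyve1 made up most of these sums, so they do not describe the other genes of the list. The rest of the list, Clec4f, Vsig4, Marco and Cd5l among them, lay below background on every array.

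For the members made in other tissues too, the markers of those tissues were read. Of 11 kidney tubule genes 4 were above background on Iso+Insl6 and 1 was at least 1.5-fold higher there and tested, the androgen-regulated Kap at 6.05, 4.67 and 6.36. Umod (0.75) stayed below background, Slc34a1 differed by 0.53 and Lrp2 by 0.25, and the sums were 225, 172 and 245. Most of the change in these sums came from Kap, so they do not describe the other kidney genes. The 9 adipocyte genes, which bear on Pck1, differed by -0.19 for Lep to 0.29 for Lipe, with Adipoq, Plin1, Lep, Cfd, Retn and Cidec below background on every array and sums of 1584, 1632 and 1543. Fabp4, at 10.44, 10.51 and 10.4, made up most of these sums, so they do not describe the other adipocyte genes. Macrophage genes, which bear on Arg1, ran from -0.04 to 0.09 over 10 measured of 11, 8 of them above background, with sums of 509, 505 and 506. Of 8 enterocyte genes, which bear on Cps1 and Otc, only Apoa4 was above background, at 4.97 on all 3 arrays, and the sums were 76.3, 76.1 and 76.2. Fabp2 (0.48) and Alpi (-0.15) differed most in that list. The part of any of these tissues in the members' levels was not tested.

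**Figure D4:**
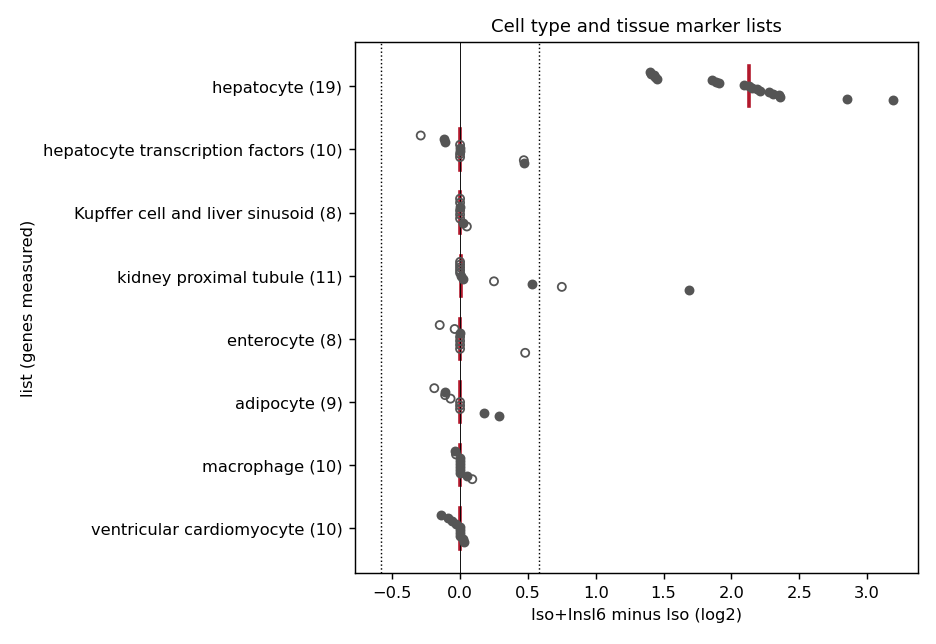
Log2 difference Iso+Insl6 minus Iso for each gene of 8 marker lists, with the number measured in brackets; open circles are genes below background on both arrays, red bars list medians and dotted lines 1.5-fold. All 19 hepatocyte markers lie between 1.40 and 3.19, and the medians of the other 7 lists lie at 0.00 or 0.01.

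Because Tat, Tdo2 and Pck1 are known to respond to glucocorticoids, 14 responsive genes that are not restricted to liver were set beside them. All 14 were above background on every array. Between Iso+Insl6 and Iso 4 passed 1.5-fold upward and none downward, beside 1.49% and 0.506% of all tested genes. The 4 were Ddit4 (1.22), Zbtb16 (1.14), the receptor chaperone Fkbp5 (1.03) and Errfi1 (0.70), and the median of the list was 0.30. Differences in this list ran from 0.09 to 1.22, beside 1.93 for Pck1, 2.30 for Tdo2 and 3.05 for Tat. These members were chosen with their difference known, and the list was chosen with earlier results of these data known. Tdo2 lay below background on Control and Iso. Ddit4 (5.73, 4.73 and 5.95) and Errfi1 (7.71, 6.92 and 7.62) were lower on Iso than on Control, and their Iso+Insl6 levels differed from Control by 0.22 and -0.09. Fkbp5 and Zbtb16 differed from Control by 0.91 and 1.35, and Tat, Tdo2 and Pck1 by 2.81, 2.50 and 1.80. Between Iso and Control 2 of the 14 passed 1.5-fold upward and 5 downward, with a median of -0.07, beside 0.846% and 1.03% of all tested genes. For Iso+Insl6 against Control 6 passed it upward and 2 downward, with a median of 0.26, beside 1.96% and 0.789%. The part of glucocorticoid signals in the members' levels was not tested.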

How the data were processed

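Each of the 3 arrays held total RNA pooled from 3 ventricle samples. The values deposited by the authors are log2 levels, 1 per probe set; the submitters' processing notes name RMA and, at version 1.36.1, affy. Settings, array type and genome build are not given in the sources used here. RMA as published sets arrays to a common distribution, so a shift shared by most genes would not show.

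Symbols were taken by Entrez number from RefSeq's gene table (GRCm38.p6), and the platform annotation gave the same symbol for all 9 members. All 3 columns were matched to samples by label. Differences were taken on the log2 scale among genes at or above background on the higher array, and counted at 1.5-fold (log2 0.585), since 1 array per group allows no test. A fold against a level below background is a bound against 4.16. Precision is limited by the number of arrays, and the spread between mice is hidden by pooling.

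The members, 14 pathway lists and 8 marker lists were chosen with earlier results of these data known. Named genes were all members, all related forms, of each pathway list those past 1.5-fold or else the largest differences, up to 4 per marker list, and the 10 genes of most similar pattern, leaving out small RNAs, antigen receptor segments, predicted genes and the olfactory and vomeronasal receptors. Genes that the rule takes but that are not reported here stay in the counts and medians. Other genes named, such as neighbouring pathway steps, some further markers and Xdh, were chosen after their values were seen. Counting and likeness steps were run on simulated data with 2-fold shifts planted only in genes well above background. The simulated levels held random noise and not the ties of these arrays. They therefore do not show how the steps perform near background or on tied values. Alternatives were a 2-fold threshold, no filter, a filter from 1354 olfactory and vomeronasal receptor genes (95th percentile 3.61), centring, and cyclic loess and quantile normalization in limma 3.58.1 (R 4.3.3). Python 3.11.15, numpy 2.4.6 and pandas 2.3.3 were used.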

Additional observations from a re-analysis of the deposited data

How the results depend on the processing

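The members' counts past 1.5-fold stayed at 0 for Iso minus Control and at 8 higher and 0 lower in the other comparisons under no filter, the receptor-based filter, cyclic loess, centring and quantile normalization, and at 2-fold 7 were higher. All 81 recomputed differences of single members moved by less than 0.1. The deposited arrays already had nearly the same distribution, so loess, centring and quantile normalization could change little. Both filter alternatives were looser than the one used and could not remove a member. The unchanged counts are therefore no separate support for the members' differences. With levels below background set to 4.16, the members' median was 1.96 for Iso+Insl6 minus Iso and 1.96 for Iso+Insl6 minus Control, since Uox, Tdo2, Otc and Bhmt were below background on 1 or both arrays compared. Counts over all genes moved with the fold and the filter. At 2-fold they were 19 higher and 32 lower for Iso minus Control, 122 and 15 for Iso+Insl6 minus Iso, and 125 and 27 for Iso+Insl6 minus Control. With no filter they were 190 and 236 for the first, 313 and 190 for the second, and 227 lower for the third. The receptor-based filter gave 101 lower for Iso+Insl6 minus Iso. No paired analysis was possible because each group is 1 array, and for the same reason no array could be left out. Signal near background limits Uox, Tdo2, Otc and Bhmt most.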

Other observations

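Hepatocytes divide these pathways along the liver lobule. Of 12 genes known from hepatocytes near the portal vein, 5 are among the 9 enzymes and were chosen with their difference known. Of the other 7, Cyp2f2 (4.76 on Iso against 6.51 on Iso+Insl6) and Hal (3.66 against 4.62) passed 1.5-fold by listed values, only Cyp2f2 did by bound, and the median difference was 0.29. With the 5 enzymes 7 of 12 did, 5 of them by bound, and the median was 0.84. Of 9 measured genes of hepatocytes near the central vein 3 passed 1.5-fold by both measures, with a median of 0.39: Cyp2e1 (5.81 against 9.0), Rgn (4.04 against 5.59) and Cyp1a2 (4.69 against 6.12). Glul and Oat, which belong to the second zone and are also strongly expressed in this ventricle tissue, differed by 0.39 and 0.06. None of either list was 1.5-fold lower. The difference between the zones was not tested.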
